A study of Mus musculus with 30 samples.

Results

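The genes described here are 10 genes of the endoplasmic reticulum (ER) stress response, Hspa5, Hsp90b1, Calr, Dnajb9, Sdf2l1, Pdia4, Herpud1, Creld2, Manf and Xbp1, in the colon of mice. The set is defined by gene name, with no threshold on a measured value, although earlier results of these data were known when it was chosen. All 10 were found among the 46078 genes of the count table. Coordinates are those of GRCm38 in the deposited files. RNA-seq was performed on colon tissue from C57BL/6J mice, with 6 animals and 1 library per animal in each of 5 groups. CD F and CD M were females and males on the control diet, HFD F and HFD M were females and males on the high-fat diet, and HFD+E2 M were males on the high-fat diet that were given estradiol (E2). All groups were kept on their diet for 13 weeks and received intraperitoneal injections in the last 3 weeks, 9 in all, of vehicle in the first 4 groups and of 0.5 mg/kg E2 in the fifth. There was no E2-treated female group and no E2-treated group on the control diet, and the ages of the animals were not given in the labels.

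Proteins that are secreted or placed in membranes are folded in the ER by chaperones and by enzymes that form disulfide bonds. When unfolded proteins accumulate, sensors in the ER membrane (Ern1, Eif2ak3 and Atf6) start the unfolded protein response, which raises the transcription of chaperones, of folding enzymes and of the machinery that takes misfolded proteins out of the ER for degradation. Goblet cells, which secrete mucin, and plasma cells, which secrete antibodies, are known for a large ER and for their need of Xbp1. In a piece of colon, fewer cells of a type and less RNA per cell cannot be told apart.

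The ER stress response element, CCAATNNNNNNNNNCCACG, and the shorter element II, ATTGGNCCACG, are known binding sites of Atf6 and Xbp1 in the promoters of such genes. These letters were searched on both strands of the 300 bases from 250 before to 50 after the gene start in the RefSeq annotation of GRCm38.p6, where 9 of the 10 genes had a window. Element II contains the CCAAT box in reverse and the CCACG letters that also make up the longer element. The windows that hold either are shown because they set Herpud1, to which the diet comparisons below turn, beside chaperone genes with the longer element. Each is written 5′ to 3′ along the strand of the gene, and capitals mark the match.

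Hspa5, chr2:34771840-34772139, plus strand: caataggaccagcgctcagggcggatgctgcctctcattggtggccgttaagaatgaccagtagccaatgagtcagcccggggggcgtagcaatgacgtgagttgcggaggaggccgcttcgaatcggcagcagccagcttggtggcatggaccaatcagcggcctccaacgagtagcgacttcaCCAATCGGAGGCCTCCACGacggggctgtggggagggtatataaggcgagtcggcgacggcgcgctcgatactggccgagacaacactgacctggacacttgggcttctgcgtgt
Hsp90b1, chr10:86705395-86705694, minus strand: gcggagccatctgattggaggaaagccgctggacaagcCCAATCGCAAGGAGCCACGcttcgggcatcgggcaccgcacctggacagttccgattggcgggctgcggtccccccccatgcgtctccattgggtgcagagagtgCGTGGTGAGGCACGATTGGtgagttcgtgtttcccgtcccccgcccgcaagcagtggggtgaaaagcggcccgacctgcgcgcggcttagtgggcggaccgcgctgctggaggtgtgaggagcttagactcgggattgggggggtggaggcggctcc
Calr, chr8:84846882-84847181, minus strand: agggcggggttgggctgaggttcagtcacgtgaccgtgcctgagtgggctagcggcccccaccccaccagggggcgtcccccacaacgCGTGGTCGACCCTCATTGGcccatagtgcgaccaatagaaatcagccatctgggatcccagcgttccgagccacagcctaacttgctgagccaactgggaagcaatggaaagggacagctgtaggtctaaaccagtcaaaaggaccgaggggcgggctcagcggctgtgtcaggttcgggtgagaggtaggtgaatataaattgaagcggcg
Creld2, chr15:88819396-88819695, plus strand: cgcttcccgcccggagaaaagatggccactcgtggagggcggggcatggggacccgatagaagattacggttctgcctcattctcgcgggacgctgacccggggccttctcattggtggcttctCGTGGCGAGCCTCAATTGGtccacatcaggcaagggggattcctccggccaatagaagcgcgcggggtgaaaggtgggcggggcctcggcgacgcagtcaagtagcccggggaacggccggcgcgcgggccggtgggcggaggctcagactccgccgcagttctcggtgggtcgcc
Herpud1, chr8:94386179-94386478, plus strand: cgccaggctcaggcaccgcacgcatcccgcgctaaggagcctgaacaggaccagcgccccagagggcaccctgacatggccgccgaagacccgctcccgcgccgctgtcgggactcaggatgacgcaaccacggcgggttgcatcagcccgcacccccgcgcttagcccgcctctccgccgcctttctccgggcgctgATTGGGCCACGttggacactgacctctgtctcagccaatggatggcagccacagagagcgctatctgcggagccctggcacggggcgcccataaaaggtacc

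The longer element was found in the windows of Hspa5, Hsp90b1, Calr and Creld2, with 2 matches in Hsp90b1, against 39 of 32851 windows of all genes (0.119%). Its first base along the gene lay 65 bases before the start in Hspa5, 212 and 107 in Hsp90b1, 162 in Calr and 126 in Creld2. Element II was found in Herpud1 alone among the 9 genes, 52 bases before the start, and in 12 of 32851 windows of all genes (0.0365%). Both elements are known from the promoters of such genes, so these shares describe the windows and are no test. TGACGTGG, a core that Xbp1 and Atf6 are known to bind, was in none of the 9 windows and in 0.676% of all windows. Dnajb9, Sdf2l1, Pdia4 and Xbp1 held none of these 3 motifs in this window, which says nothing of the rest of their promoters.

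Per length, Calr and Hsp90b1 were the most abundant of the 10 genes. Levels between genes are given in TPM, a unit in which the authors divided by gene length and gave each library an equal sum. Calr, a lectin chaperone that also binds calcium, averaged 197 TPM over the 30 libraries, and Hsp90b1, the Hsp90 of the ER, averaged 154 TPM. Calr was above Hsp90b1 in 30 of 30 libraries, and Hsp90b1 was above the next gene in 30 of 30. Xbp1, Herpud1 and Hspa5 followed at 71.0, 69.5 and 67.1 TPM and were not separated, as Xbp1 exceeded Herpud1 in 16 of 30 libraries and Herpud1 exceeded Hspa5 in 16 of 30. Pdia4 followed at 50.6 TPM (below Hspa5 in 24 of 30), Manf at 22.1 TPM, Dnajb9 at 16.0 TPM (below Manf in 24 of 30), Creld2 at 8.87 TPM and Sdf2l1 at 5.74 TPM. Sdf2l1 rested on the fewest reads, with 22 to 86 counts per library, whereas Hsp90b1 had 2687 to 5973.

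**Figure D1:**
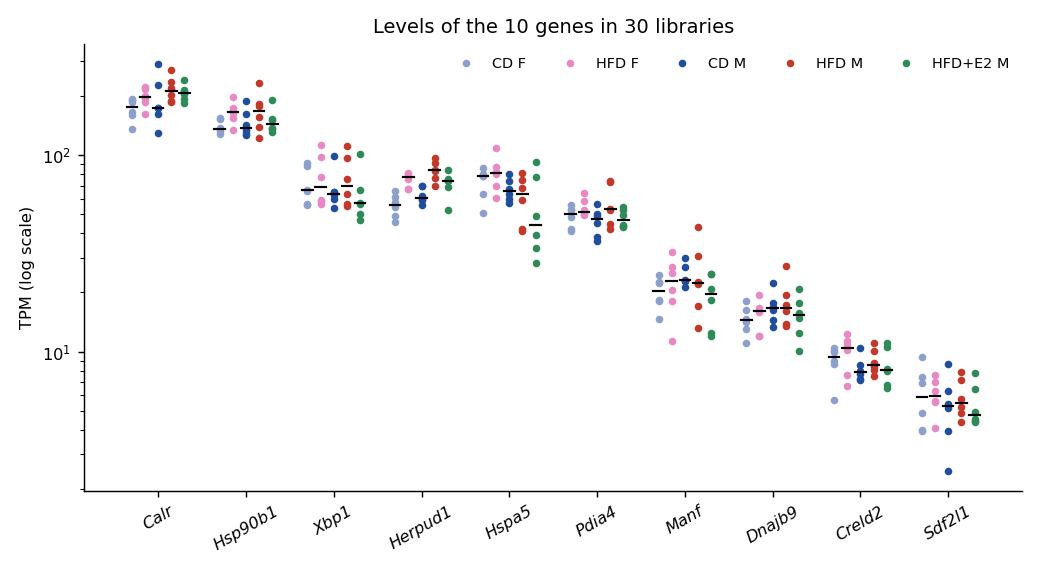
Levels of the 10 genes in TPM on a log scale. Each point is 1 library (n = 6 per group), colours give the group and black bars the group medians. The genes are ordered by their mean over 30 libraries, from Calr at 197 TPM to Sdf2l1 at 5.74 TPM.

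The chaperones showed overlapping levels in all 5 groups. Hspa5 (ENSMUSG00000026864, chromosome 2, 34771970 to 34777547, plus strand) encodes the Hsp70 of the ER, which also holds the sensors inactive. Its group medians were 78.3 TPM in CD F, 65.4 in CD M, 80.9 in HFD F, 63.7 in HFD M and 44.1 in HFD+E2 M, and single libraries ranged from 28.3 to 109 TPM. For Hsp90b1 the medians were 136 TPM in CD F, 138 in CD M, 167 in HFD F, 167 in HFD M and 144 in HFD+E2 M, within a range of 123 to 233 TPM. For Calr they were 176 TPM in CD F, 174 in CD M, 197 in HFD F, 211 in HFD M and 207 in HFD+E2 M, within 129.5 to 289.7 TPM. No group stood clear of another for any of these genes. The co-chaperones of Hspa5 were lower and similarly mixed. Dnajb9, a J-domain partner, had medians of 14.5 to 16.6 TPM, and Sdf2l1, which is found in complexes with Hspa5, had medians of 4.73 to 5.96 TPM.

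Pdia4, a disulfide isomerase, had group medians between 46.7 TPM in HFD+E2 M and 53.0 TPM in HFD M. The secreted proteins Creld2 and Manf, both known to be induced by ER stress, had medians of 7.84 to 10.5 TPM and of 19.6 to 23.0 TPM. Xbp1 (ENSMUSG00000020484, chromosome 11, 5520659 to 5525893, plus strand), the transcription factor whose RNA is spliced by Ern1, had medians of 57.0 to 69.5 TPM. The counts per gene used here do not separate its spliced from its unspliced RNA.

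Herpud1 (ENSMUSG00000031770, chromosome 8, 94386438 to 94395377, plus strand), a protein of the ER membrane that serves the degradation of misfolded proteins, had the clearest order of groups. It had a lowest, median and highest value of 45.5, 55.9 and 65.5 TPM in CD F and of 66.8, 77.2 and 81.2 TPM in HFD F. In males the values were 56.0, 60.7 and 69.3 TPM in CD M, 69.6, 83.7 and 96.1 TPM in HFD M, and 52.5, 73.9 and 83.5 TPM in HFD+E2 M. Every HFD F library lay above every CD F library, every HFD M library lay above every CD M library, and the HFD+E2 M libraries reached from below the range of CD M into the lower part of that of HFD M. Herpud1 was the 1 gene of the 10 with such a separation by diet, which 0.355% of genes with a mean of at least 1 TPM showed in females and 0.0903% in males in the higher direction.

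The comparisons between groups were made on the counts, with depth-scaled counts (CPM) after TMM normalization as the level. A gene was called by the rule of the study, which asks for p under 0.05, read as unadjusted, and for a fold change beyond 0.4 either way on the log2 scale, and separately by a Benjamini-Hochberg adjusted p under 0.05 over all genes tested. Total counts per library ranged from 8667177 to 17243712, with 26.1% to 38.0% on mitochondrial genes. Markers of colon epithelium were present in all libraries, with summed levels of 2436 to 5307 TPM and none of 11 at 0 in any group. Markers of stratified squamous epithelium, which the colon lacks, summed to over 100 TPM in 6 libraries, 4 of HFD F and 2 of HFD M, and to at most 15.5 TPM in the other 24. All 10 genes passed the filter on low counts in every comparison.

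The first question was whether the diet changed the ER stress genes. In females, 0 of 10 genes were called by the rule of the study, against 3.67% of all genes tested, and 0 of 10 by adjusted p, against 0.0199%. Herpud1 was the 1 gene with an unadjusted p under 0.05, against 5.68% of all genes. DESeq2 called it by adjusted p (0.00298), but not by the rule of the study. The share called by adjusted p was 0.801% of the 27955 genes with a p-value, whether or not DESeq2 gave them an adjusted p. Herpud1 had 74.3, 82.1 and 96.0 CPM as lowest, median and highest values in CD F and 94.2, 108 and 117 CPM in HFD F. The lowest HFD F library lay below the highest CD F library, and 6 of 6 HFD F libraries lay above the median of CD F. The log2 fold change was 0.37 (SE 0.080, 95% interval 0.20 to 0.54), a 1.29-fold higher level, with adjusted p = 0.383 in edgeR. Its p was the 12th smallest p of 15061 genes. In the exact permutation test, two-sided, p was 0.00433 for log2 CPM and 0.00216 for log2 TPM, the smallest possible with 6 against 6.

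In males, 1 of 10 genes was called by the rule of the study, against 2.9% of all genes tested (1.25% in the higher direction), and 0 of 10 by adjusted p, against 0%. DESeq2 gave the same counts, and 1 gene had an unadjusted p under 0.05 in either tool, against 6.03% of all genes in edgeR. The gene called was Herpud1, with 82.1, 88.5 and 107 CPM in CD M and 99.2, 120.2 and 156 CPM in HFD M. The groups overlapped, and 6 of 6 HFD M libraries lay above the median of CD M. Its log2 fold change was 0.41 (SE 0.11, 95% interval 0.18 to 0.65), a 1.33-fold higher level, with adjusted p = 0.574 in edgeR. The exact permutation test gave p = 0.00866 on log2 CPM and p = 0.00216 on log2 TPM. Leaving out replicate 2 or 5 of CD M, or replicate 2 or 5 of HFD M, ended the call by the rule of the study, with log2 fold changes from 0.32 over the 12 libraries left out in turn. The call was also lost with a score of plasma cell markers in the fit (0.38) or of goblet cell markers (0.39).

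The diet difference in Herpud1 did not differ detectably between the sexes. The interaction of sex and diet was -0.05 on the log2 scale (SE 0.14, 95% interval -0.33 to 0.23, adjusted p = 0.942 in edgeR), and 0 of 10 genes were called in it by either rule, against 5.18% and 0% of all genes, in edgeR or in DESeq2. None of the 10 had an unadjusted p under 0.05 in the interaction, against 6.75% of all genes in edgeR. After these values had been seen, both diets were compared over the 24 vehicle-treated animals, as the mean of the differences in females and in males. Herpud1 was then higher on HFD by 0.39 on the log2 scale (SE 0.068, 95% interval 0.25 to 0.53), a 1.31-fold difference, with adjusted p = 0.0152 in edgeR, and its p was the 5th smallest of 15800 genes. It was 1 of 10 genes called by adjusted p, against 0.443% of all genes, and 0 of 10 were called by the rule of the study, against 2.78%, since the difference was below 0.4. At an unadjusted p under 0.05 it was 1 of 10, against 6.04%. The adjusted p stayed under 0.05 in all 24 fits that left out 1 library, from 0.00706 to 0.0444.

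Cell type markers moved with the diet beside Herpud1. The 10 plasma cell markers summed to 270.6 to 1159 TPM in HFD F and to 47.6 to 238 TPM in CD F, with no overlap, and to 59.3 to 279 TPM in HFD M and 48.8 to 197 TPM in CD M. With a score of these markers in the fit, the Herpud1 difference over both sexes was 0.35 with an adjusted p of 0.226, and with a score of squamous markers it was 0.41 with an adjusted p of 0.0627. Without the 6 libraries with squamous markers, chosen after the data had been seen, it was 0.42 with an adjusted p of 0.128 in edgeR. Of all 15800 genes, 70 had an adjusted p under 0.05 without a score. With the plasma cell score there were 0 and with the squamous score 7. Without the 6 libraries there were 5 of 16564 genes. Smooth muscle and goblet cell scores left the adjusted p of Herpud1 under 0.05. None of the 10 plasma cell markers was at 0 throughout a group, and 4 of 15 squamous markers (Dsg3, Krtdap, Ivl and Lgals7) were at 0 in all CD F libraries.

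**Figure D2:**
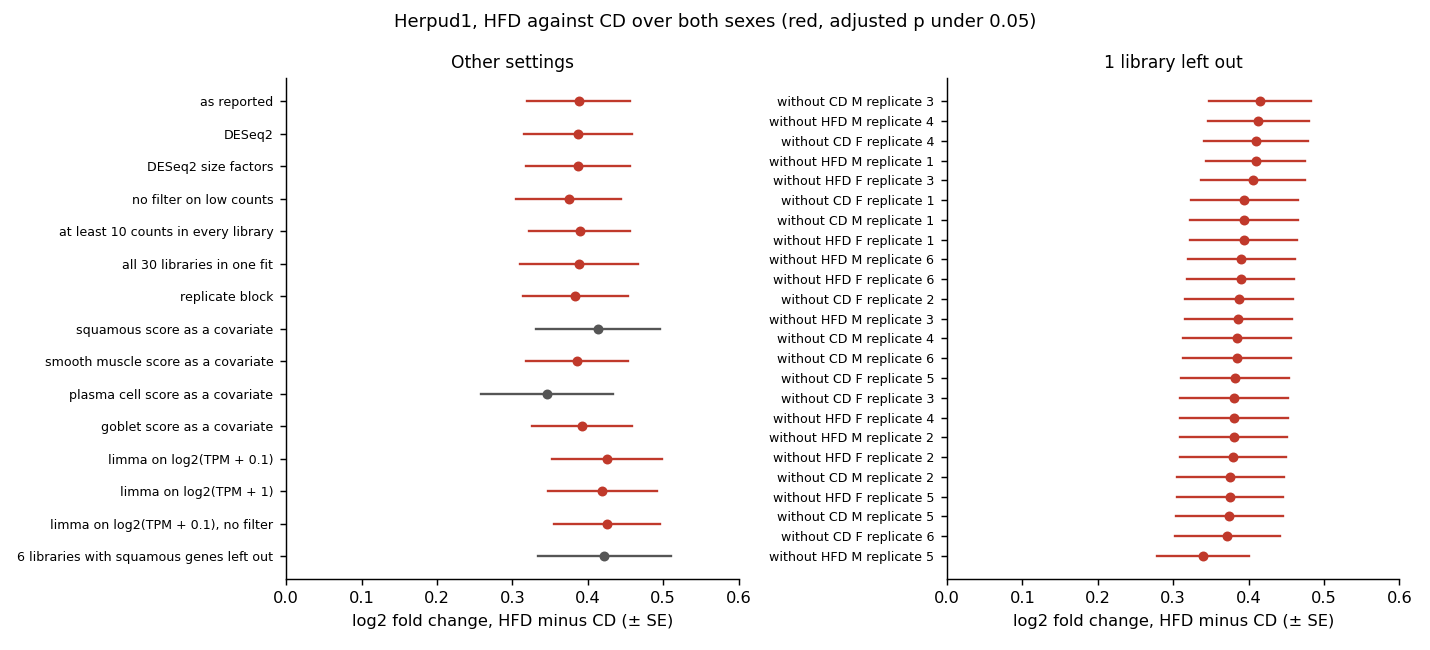
Herpud1 in HFD against CD over both sexes. Points are log2 fold changes on the horizontal axis with their standard errors, on the left under other settings of the analysis and on the right with 1 library left out. All values lie between 0.34 and 0.43, and those in red had an adjusted p under 0.05.

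For the other 9 genes no difference with diet passed either rule. In females their log2 fold changes ran from -0.06 (Sdf2l1) to 0.14 (Calr), with adjusted p = 0.999 for each in edgeR, and the widest intervals reached from -0.46 (Sdf2l1) to 0.44 (Calr). In males they ran from 0.03 (Dnajb9) to 0.25 (Pdia4), and the smallest adjusted p was 0.825. The Pdia4 difference in males had an interval of -0.01 to 0.51. Pdia4 had 68.8, 80.7 and 99.4 CPM in CD M and 80.0, 91.8 and 126 CPM in HFD M, so that most of the libraries overlapped. For Hspa5 the log2 fold change was 0.05 in females (95% interval -0.21 to 0.31) and 0.13 in males (-0.14 to 0.39). For Xbp1 it was 0.05 in females (-0.17 to 0.27) and 0.08 in males (-0.17 to 0.32). All 10 intervals in each sex lay within 1 either way on the log2 scale. In males all 10 values were positive in edgeR, against 48.7% of all genes, with a median of 0.13 against -0.01. In females 7 of 10 were positive, against 50.3%, with a median of 0.05 against 0.00. The signs depended on the scale, as on log2 TPM Hspa5 was -0.17 and Manf -0.08 in males, while the others were positive. Several of the 10 genes also varied together between animals, as described below, so their signs are not independent.

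**Figure D3:**
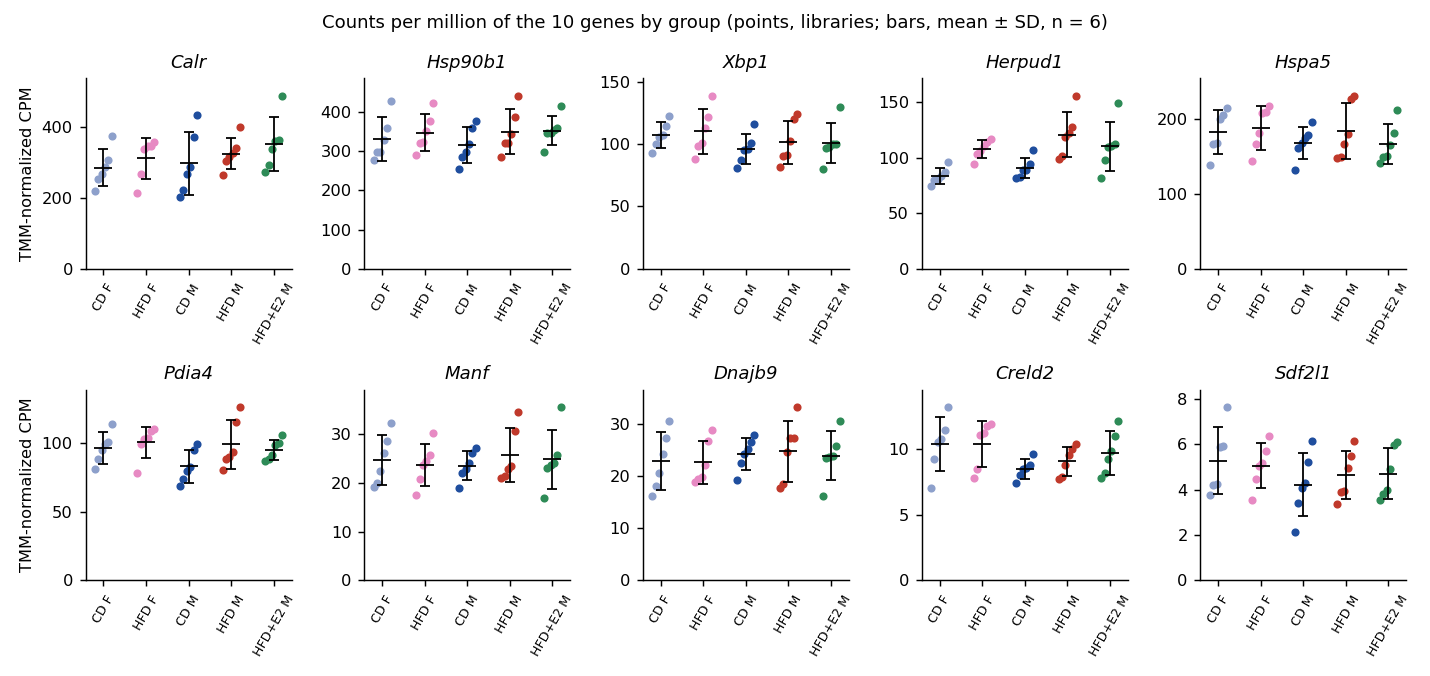
CPM of the 10 genes by group, with points for libraries and bars for mean ± SD (n = 6). Herpud1 has means of 83.6 CPM in CD F and 107 CPM in HFD F, and of 90.6 CPM in CD M and 121 CPM in HFD M, while the points of the other genes overlap broadly.

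The second question was whether the sexes differed. On the control diet, 0 of 10 genes were called by either rule, against 9.15% of all genes by the rule of the study and 2.92% by adjusted p. The largest differences were those of Sdf2l1 and Creld2. For Sdf2l1 the log2 fold change, females minus males, was 0.31 (SE 0.23, adjusted p = 0.591 in edgeR), with an interval of -0.18 to 0.79. For Creld2 it was 0.29 (SE 0.14, adjusted p = 0.353 in edgeR), with 7.03, 10.6 and 13.2 CPM in CD F and 7.43, 8.47 and 9.60 CPM in CD M. The CD F libraries of Creld2 thus reached both below and above all CD M libraries. It was 0.21 for Pdia4 (95% interval -0.01 to 0.43), 0.15 for Xbp1 (-0.04 to 0.34) and -0.12 for Herpud1 (-0.30 to 0.06). At an unadjusted p under 0.05 there were 0 of 10 genes in edgeR and 1 of 10 in DESeq2, against 14.8% of all genes in edgeR.

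Smooth muscle markers moved with sex on the control diet. The 10 markers summed to 2532 to 3935 TPM in CD F and to 3998 to 6673 TPM in CD M, with no overlap. With a score of these markers in the fit, the log2 fold change was 0.47 for Hsp90b1, 0.50 for Calr and 0.42 for Pdia4. Thus 3 of 10 genes met the rule of the study, against 2105 of all 14922 genes in this fit. The adjusted p was 0.0773, 0.239 and 0.115 in edgeR. As the markers did not overlap between the sexes, this fit can hardly separate them from sex. Calr was -0.06 without the score. With a score of goblet cell markers Calr was -0.54 (adjusted p = 0.498). The goblet markers summed to 4822 to 6841 TPM in CD F and to 3168 to 6218 TPM in CD M.

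On the high-fat diet, 0 of 10 genes were called by either rule, against 3.09% of all genes by the rule of the study and 0.0988% by adjusted p, and 0 of 10 had an unadjusted p under 0.05 in edgeR, against 5.09%, or in DESeq2. The differences ran from -0.17 (Herpud1) to 0.20 (Creld2) on the log2 scale, and the widest intervals reached from -0.47 (Dnajb9) to 0.53 (Sdf2l1). The interval for Herpud1 was -0.40 to 0.06.

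The third question was whether E2 altered the genes in obese males. Between HFD+E2 M and HFD M, 0 of 10 genes were called by either rule, against 5.87% of all genes by the rule of the study and 0.00666% by adjusted p. None had an unadjusted p under 0.05 in edgeR, against 10.2% of all genes, or in DESeq2. Hspa5 had the largest difference, -0.15 (SE 0.13, adjusted p = 0.663 in edgeR), with 148, 173 and 231 CPM in HFD M and 141, 158 and 212 CPM in HFD+E2 M. Herpud1 was -0.14 (SE 0.14, 95% interval -0.43 to 0.15, adjusted p = 0.689 in edgeR), with 81.7, 110.0 and 149 CPM in HFD+E2 M, and 1 of 6 of these libraries lay above the median of HFD M. The remaining genes lay between -0.07 (Pdia4) and 0.11 (Calr).

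Against CD M, the HFD+E2 M group differed in both diet and E2. No gene was called by either rule (0 of 10, against 5.99% of all genes by the rule of the study and 0.212% by adjusted p). For Herpud1 the log2 fold change was 0.28 (SE 0.12, 95% interval 0.03 to 0.53, adjusted p = 0.403 in edgeR) and it was the 1 gene with an unadjusted p under 0.05, in edgeR, against 10.7% of all genes, and in DESeq2. Of the HFD+E2 M libraries, 5 of 6 lay above the median of CD M. The other genes lay between -0.03 (Dnajb9) and 0.24 (Calr). Comparisons that involve HFD M or CD M share these libraries and are not independent of each other.

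**Figure D4:**
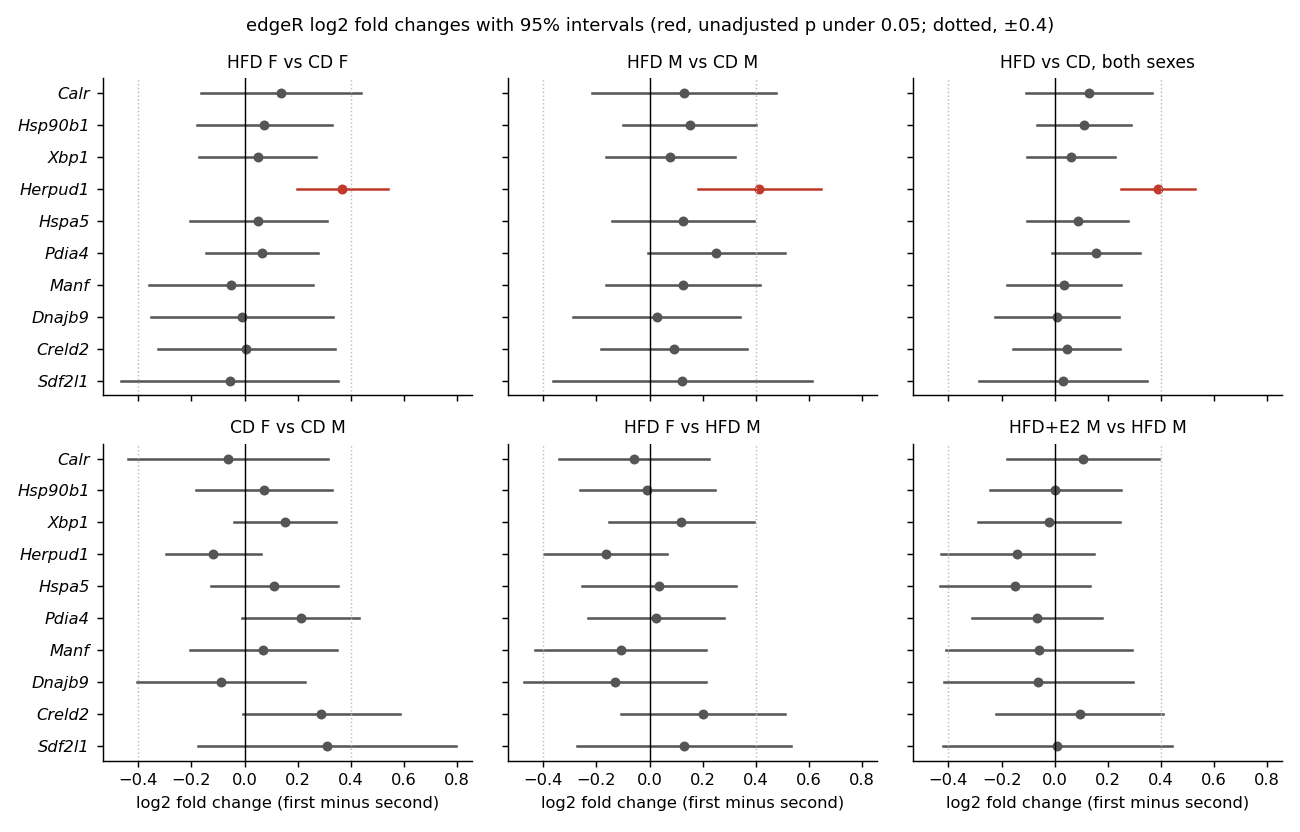
Log2 fold changes of the 10 genes from edgeR with 95% intervals, first group minus second, in 6 comparisons. Red marks an unadjusted p under 0.05, which only Herpud1 shows, at 0.37, 0.41 and 0.39 in the diet comparisons, and dotted lines mark 0.4 either way.

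The wider pathway was followed with lists of genes that contain none of the 10. Of 13 sensors and transcription factors of the unfolded protein response, 12 were tested in CD F against CD M. There Ern2, the Ern1 relative of gut epithelium, was higher in CD F by 0.36 (SE 0.088, adjusted p = 0.0350 in edgeR). It was the 1 of 12 called by adjusted p, against 2.92% of all genes. Creb3l3, a membrane-bound transcription factor known from lipid metabolism in liver and gut, was higher in HFD+E2 M than in CD M by 2.29 (SE 0.32, adjusted p = 0.00416 in edgeR). It was the 1 of 13 called by adjusted p, against 0.212% of all genes. Ern2 and Creb3l3 were the only genes of the 6 lists called by adjusted p in any comparison. By the rule of the study, Creb3l3 was the 1 of 13 called in HFD M against CD M, at 1.32, against 2.9% of all genes, and the 1 of 13 called with diet over both sexes, at 1.1, against 2.78%. Creb3l3 and Ern2 were 2 of 13 called in HFD+E2 M against HFD M, at 0.96 and 0.42, against 5.87% of all genes, and 2 of 13 in HFD+E2 M against CD M, where Ern2 was at 0.41, against 5.99%. Goblet cell markers also had positive median log2 fold changes where Ern2 is named. These were 0.43 in CD F against CD M, 0.42 in HFD+E2 M against HFD M and 0.36 in HFD+E2 M against CD M. Whether Ern2 followed the goblet cells was not tested. The sensors had a median log2 fold change of -0.03 with diet in females and 0.07 in males, against 0.00 and -0.01 for all genes.

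Of 21 other ER chaperones and folding enzymes, the rule of the study called 0 with diet in females, against 3.67% of all genes. In males it called 0 of 20 tested, against 2.9%. At an unadjusted p under 0.05 there were 0 in females, against 5.68%, and 1 in males, against 6.03%. The smallest p-values were those of Sdf2, Cnpy2 and Fkbp14 in females and of Cnpy2, Canx and Dnajb11 in males. The medians were 0.01 in females and 0.12 in males, where 17 of 20 were positive, against 48.7% of all genes. Ero1b, an oxidase of protein disulfide isomerases, was called between the sexes on the control diet, at 0.55, as 1 of 21, against 9.15% of all genes. It was also called in HFD+E2 M against CD M, at 0.59, as 1 of 21, against 5.99%. With diet in males Ero1b was not called here, whereas the study lists it, as Ero1lb, among its HFD-regulated genes in males. Fkbp2 was 1 of 21 called with E2, at 0.56, against 5.87%. In the interaction Cnpy2 was 1 of 21 called, at -0.47, against 5.18%.

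ER-associated degradation, the pathway that Herpud1 serves, had no other gene called with diet. Of 17 such genes, 16 were tested. The rule of the study called 0 of 16 in females and 0 of 16 in males, against 3.67% and 2.9% of all genes. At an unadjusted p under 0.05 there were 2 in females, against 5.68%, and 0 in males, against 6.03%. Herpud2, the paralog of Herpud1, had a log2 fold change of 0.23 on HFD in females (adjusted p = 0.708 in edgeR), and Derl2 was -0.25 and Faf2 -0.11. In males the smallest p-values were those of Edem1 at 0.17, Syvn1 at -0.22 and Derl1 at 0.16. The medians were -0.03 in females and 0.01 in males. Syvn1, the ubiquitin ligase to which Herpud1 is known to bind, was called by the rule of the study with E2, at 0.45, as 1 of 16, against 5.87% of all genes.

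The targets of the Eif2ak3 arm had 1 or 2 genes called by the rule of the study in each comparison but that of HFD M with CD M and that of both sexes together, which had 0. Atf3, a stress-induced transcription factor, was the 1 of 9 genes called in CD F against CD M, at 1.52, against 9.15% of all genes. It was also the 1 of 9 in HFD F against CD F, at -1.52, against 3.67%, and in HFD F against HFD M, at -0.77, against 3.09%. In the interaction it was the 1 of 10 called, at -2.30 (adjusted p = 0.623 in edgeR), against 5.18%. With E2, Nupr1 and Ddit3, which encodes the factor CHOP, were called by the rule of the study at 0.52 and 0.43, as 2 of 10 genes tested, against 5.87% of all genes. Against CD M, Ddit3 was the 1 of 10 called, at 0.45, against 5.99%. None of these calls passed the adjusted threshold.

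Translocation into the ER and transport to the Golgi had 25 genes tested of 26. With diet, 0 of 25 were called by the rule of the study in females or males, against 3.67% and 2.9% of all genes. In either sex 0 had an unadjusted p under 0.05, against 5.68% and 6.03%. The smallest p-values were those of Lman2, Srprb and Sec63 in females and of Kdelr2, Ssr2 and Spcs2 in males. The median was -0.03 in females and 0.08 in males, where 21 of 25 were positive, against 48.7% of all genes. Sec61b, a subunit of the translocation channel, was 1 of 25 called with E2, at -0.57, against 5.87% of all genes. For comparison, of 14 heat shock genes of the cytosol, Hspb1 was the 1 called with diet in females, at 0.49, against 3.67% of all genes. In males 0 of 14 were called, against 2.9%. Hspb1 was also the 1 of 14 called in HFD F against HFD M, at 0.57, against 3.09%. With E2, Hspb1 and Bag3 were called at 0.52 and 0.42, as 2 of 14, against 5.87%.

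The genes of the ER varied together between animals of the same group, in part. Whether this followed differences in the cell types of the libraries was not tested. For each pair, the deviations of log2 CPM from the group means were correlated over the 30 libraries and tested by permutation within groups, with p-values adjusted over 45 pairs. The median r was 0.18 (range -0.39 to 0.77), and 8 of 45 pairs had an adjusted p under 0.05, all 8 with a positive r. Hspa5, Xbp1 and Manf formed one set. Hspa5 correlated with Xbp1 at r = 0.76 (rho = 0.73) and with Manf at r = 0.75 (rho = 0.78), each with an adjusted permutation p of 0.000675, and Manf with Xbp1 at r = 0.64 (rho = 0.66, adjusted permutation p = 0.00585). Hsp90b1 and Calr formed another, at r = 0.77 (rho = 0.79, adjusted permutation p = 0.00045). Pdia4 joined both, with r = 0.72 to Calr, 0.71 to Hsp90b1, 0.60 to Manf and 0.55 to Hspa5, and adjusted permutation p from 0.00045 to 0.0287.

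Between the sets the relation was weaker. Hspa5 correlated with Hsp90b1 at r = 0.29 and with Calr at r = 0.17, and Xbp1 with Calr at r = -0.03, with adjusted permutation p of 0.307, 0.557 and 0.911. Without the 2 libraries farthest from the median of Hspa5, its r was 0.75 with Xbp1, 0.70 with Manf and 0.58 with Pdia4. In 5 of 5 groups r was positive for each of the 8 pairs. Over the 24 vehicle-treated libraries r was 0.73 for Hspa5 with Xbp1, 0.86 for Hspa5 with Manf and 0.76 for Hsp90b1 with Calr. Hspa5 and Xbp1 shared an extreme library, as did Manf and Xbp1, but no library was the extreme of all of these genes. HFD+E2 M replicate 1 had the largest upward deviation of both Hspa5 (0.36 on the log2 scale) and Xbp1 (0.38), and HFD+E2 M replicate 4 had the largest downward deviation of both Manf (-0.51) and Xbp1 (-0.31).

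Herpud1 lay outside these sets, as did Dnajb9, Sdf2l1 and Creld2, which also had no pair with an adjusted p under 0.05. The 9 correlations of Herpud1 with the other genes lay between -0.21 (Hspa5) and 0.18 (Calr), and the smallest adjusted permutation p was 0.516. On the TPM scale 13 of 45 pairs had an adjusted p under 0.05, among them all 8 above. There the r of Herpud1 ran from -0.18 (Hsp90b1) to 0.45 (Creld2), with 0.44 for Xbp1 and 0.43 for Sdf2l1. The spread within groups was smallest for Pdia4 and Herpud1, with a pooled SD of 0.19 on the log2 CPM scale each, and largest for Sdf2l1, with 0.37. For genes of a similar level the median SD was 0.19 for Pdia4, 0.18 for Herpud1 and 0.35 for Sdf2l1, so that these genes varied about as much as their neighbours in level. Hspa5, at 0.24 against 0.18, and Calr, at 0.30 against 0.19, had a larger SD than theirs.

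**Figure D5:**
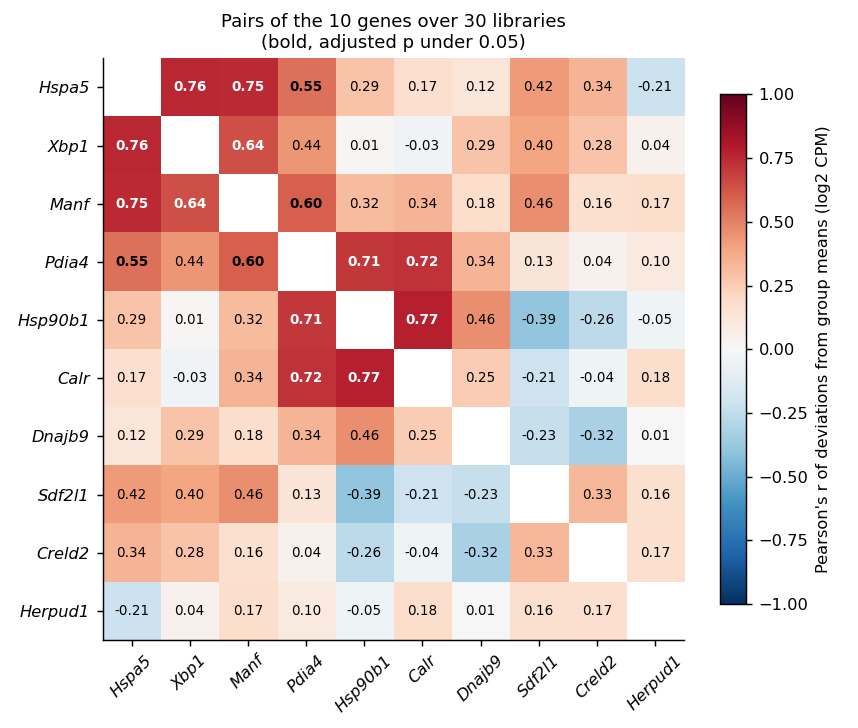
Pearson's r between the 10 genes for deviations from group means of log2 CPM (30 libraries), from blue at -1 to red at 1, with adjusted p under 0.05 in bold. Hspa5, Xbp1 and Manf and then Hsp90b1 and Calr form blocks that Pdia4 joins, while the row of Herpud1 lies between -0.21 and 0.18.

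The genes most like the 10 over the 30 libraries were named by their Pearson's r with the mean standardized deviation of the 10, among 16050 other genes and with no test. They were Agr2 (r = 0.82), Uggt1 (r = 0.81), Acat1 (r = 0.80), Mlec, Arcn1, Mut, Uba1, Fam3b, Dnajb11 and Akr1c13 (r = 0.76). Agr2 is a disulfide isomerase of the ER that goblet cells need for mucin, Uggt1 marks misfolded glycoproteins for another round of folding, Dnajb11 is a co-chaperone of Hspa5, and Arcn1 is a subunit of the coat of Golgi vesicles. 2 of the 10 were in the lists of the pathway, which held 99 of the 16050 genes. Of the 100 genes with the highest r, 3 were in these lists.

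The deposited TPM and the counts did not rank the libraries alike for all genes. Over 30 libraries the r between log2 CPM and log2 TPM was 0.93 for Sdf2l1 and 0.82 for Herpud1, but 0.67 for Hspa5, 0.66 for Hsp90b1 and 0.29 for Manf. The ratio of TPM to CPM varied 2.93-fold between libraries for Hspa5, 4.0-fold for Manf and 1.90-fold for Xbp1, and 1.54-fold to 1.71-fold for the other 7. In Hspa5 it was lowest in HFD+E2 M, with a median of 0.29 and a low of 0.17, against a median of 0.38 in CD F. The TPM levels of Hspa5 given above for HFD+E2 M, with a median of 44.1, thus went with a median of 158 CPM, which lay within the range of every other group. The span of Manf overlaps those of Rbm15b on the same strand (6511 bases) and of Vprbp on the other, so that its values are less certain, whereas the genes that overlap Hsp90b1, Pdia4 and Herpud1 had counts of at most 0.488% of theirs.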

How the data were processed

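Colon RNA was depleted of ribosomal RNA, prepared as stranded libraries and sequenced with paired-end reads. The authors mapped the reads to GRCm38 with STAR, and deposited raw counts per gene from featureCounts and TPM values from StringTie. The annotation release and the strand setting of the counting were not given in the sources used here. Counts per library ranged from 8667177 to 17243712. Reads carried no molecular identifiers, so the depth limits precision for genes with few counts, such as Sdf2l1.

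Counts were tested with edgeR 4.0.16 in R 4.3.3 (filterByExpr, TMM, robust quasi-likelihood F-test) on the 12 libraries of each comparison, or on 24 for the interaction, and p-values were adjusted over all genes tested. The filter was edgeR's default. Standard errors and intervals were derived from the F statistic of each gene. CPM used TMM over 30 libraries, and log2 CPM a prior count of 2. Exact permutation tests used all 924 splits. Correlations used 100000 permutations within groups. Settings tried were DESeq2 1.42.0 or its size factors, other filters, a fit over all 30 libraries, a block for the replicate number, each library left out, scores of 4 cell types as covariates, and limma 3.58.1 on log2 TPM with 0.1 or 1 added. The tests recovered known changes in simulated counts. Those changes were larger than any difference of the 10 genes, so recovery of differences as small was not tested.

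The 10 genes, the lists and the tests were chosen with earlier results of these data known. Besides the 10 genes, the text names genes of the 6 lists past the adjusted threshold, called by the rule of the study or among the 3 smallest p-values of a list. It also names the 10 genes most like the members. The other pairs of genes, the diet comparison over both sexes and the exclusion of 6 libraries were added after values had been seen.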

Additional observations from a re-analysis of the deposited data

Results flagged for a closer look

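In each group of 6 libraries, a library was singled out where its gap to the nearest other exceeded 0.625 of the range of the group, which chance gives in about 1 of 20 groups. Over 50 combinations of gene and group this applied to 1 on the CPM scale and 2 on the TPM scale. Pdia4 had 78.1 CPM in HFD F replicate 1, against 98.9 to 110.1 CPM in the other 5 libraries of HFD F. Xbp1 had 98.9 TPM in CD M replicate 1, against 53.8 to 65.2 TPM in the others, and 102 TPM in HFD+E2 M replicate 1, against 46.9 to 66.3 TPM. HFD F replicate 1 was 1 of the 6 libraries with squamous markers, and its lower Pdia4 was not tested against them.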

How the results depend on the processing

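Over 2300 values of the 10 genes under other settings, 2272 kept their side of the threshold (the rule of the study, or the adjusted p for the diet comparison over both sexes), 15 passed it newly, 9 no longer passed it and 4 passed it with the opposite sign. Whether called or not, the log2 fold change changed its sign in 281 of the 2300 values. Of these, 276 were in the 9 genes other than Herpud1. None of the 9 genes other than Herpud1 had an adjusted p under 0.05 under any setting run. The 4 values that passed the threshold with the opposite sign were those of Calr in CD F against CD M with the smooth muscle score (0.50) and of Manf in HFD+E2 M against CD M on log2 TPM with 0.1 added (-0.42, also without a filter) or 1 added (-0.40). On these TPM scales the median of all genes had moved to -0.14 or -0.12, and the cause was not tested. In CD F against CD M, the rule of the study called 2105 of 14922 genes with the smooth muscle score. With the goblet score it called 1321. The number of the 10 genes called there moved from 0 to 3 with the smooth muscle score and to 1 with the goblet score. It moved from 0 to 1 on the 3 TPM scales in HFD F against HFD M (Hspa5, 0.43 to 0.44), in HFD F against CD F and in HFD+E2 M against CD M. With the plasma cell score it moved from 0 to 1 in HFD F against CD F (Calr, 0.52) and in HFD+E2 M against CD M (Calr, 0.58), and from 1 to 0 in HFD M against CD M.

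Herpud1 in HFD F against CD F passed the fold minimum with the squamous score (0.42), the goblet score (0.41) and log2 TPM (0.44, or 0.43 with 1 added), where all genes had a median of 0.08, so that 1 gene was called in each, and DESeq2 called 1 by adjusted p. In HFD M against CD M it fell short with the plasma cell score (0.38) and the goblet score (0.39), with 0 genes called. Over both sexes the adjusted call was lost with the squamous score (0.41) or the plasma cell score (0.35) and without the 6 libraries (0.42), with 0 genes called, and 1 gene passed the rule of the study with the squamous score, without the 6 libraries and on the TPM scales. With 1 library left out, the log2 fold change of Herpud1 ranged from 0.34 to 0.41 in females, from 0.32 to 0.47 in males and from 0.34 to 0.41 over both, and the genes called ranged from 0 to 1 in these by the rule of the study. By adjusted p they stayed at 0 in each sex and at 1 over both. Females gained the call without replicate 4 of CD F or replicate 3 of HFD F. In the remaining comparisons 0 genes were called in each such fit. Pairs past the threshold numbered 8 on CPM and 13 on TPM.

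The labels do not say that a replicate number is shared by animals, and in no comparison did the correlation of same-numbered libraries exceed 0.1 for every pair, so the numbers were not taken as pairs. It did so for 5 of 6 pairs in CD F against CD M (median r 0.24, against -0.05 for other pairs of libraries) and in HFD M against CD M (median r 0.20), where 6 and 5 of 12 libraries correlated best with their own number. The block moved the genes called by adjusted p from 435 to 941 in CD F against CD M and from 70 to 18 with diet over both sexes. With the replicate block Herpud1 was 0.37 in females, 0.40 in males and 0.38 over both, with adjusted p of 0.188, 0.325 and 0.0188 in edgeR, and no call among the 10 genes changed.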
